A study of Rattus norvegicus with 8 samples.

Results

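Enzymes of glycolysis and lactate production that come in germ cell and somatic forms were followed in testes of adult Sprague-Dawley rats given Adjudin, an analogue of lonidamine that detaches germ cells from Sertoli cells. The 9 genes were Hk1, Hk2, Gapdh, Gapdhs, Pgk1, Pgk2, Ldha, Ldhb and Ldhc, and they were chosen by name, through all probe sets that the array's probe table gives to 1 of these symbols alone. These were 8 of 14218 genes with a symbol of their own on the array, and 16 of the 31099 probe sets of the Affymetrix array: 10 ordinary ones, and 6 control probe sets that the maker placed along the Gapdh and Hk1 transcripts. Of the 9 genes, 8 had a probe set, and Pgk2 had none with its symbol alone and was not analysed here. Gapdh was read through its 3 control probe sets only. 1 further probe set that lists a member together with other symbols was left out.

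Whole testis RNA was hybridised in 3 groups, 1 array per sample: 3 arrays from rats killed 4 d after a single oral dose of 50 mg/kg Adjudin, 2 arrays from rats killed 8 h after the same dose, and 3 arrays from untreated rats. All values below are MAS 5.0 signal, a background-corrected intensity on a linear scale, after each array was brought to the same trimmed mean of 500. The arrays had been hybridised in 3 runs, and each run held 1 array of the 4 d group and 1 of the control group, while the 8 h arrays lay in runs 1 and 3. The labels name no vehicle group and do not state that the arrays came from different animals. The p-values therefore reflect the variation between these samples alone, part of which may be technical. On each array 51.6% to 59.0% of ordinary probe sets had a signal of 100 or more, and arrays of 1 group correlated at 0.954 to 0.978. In whole testis, fewer cells of a type and less RNA per cell cannot be told apart.

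Glycolysis splits glucose into pyruvate, and lactate dehydrogenase turns pyruvate into lactate and back. In the testis, Sertoli cells take up glucose and release lactate, which spermatocytes and round spermatids use as fuel, while sperm carry glycolytic enzymes along the fibrous sheath of the tail. Several of these enzymes have forms made only or mainly in male germ cells: Gapdhs in spermatids, Pgk2 and Ldhc from meiosis on, and, in the mouse, Hk1 transcripts with a first exon of their own. Pgk2 is a retrogene that stands in for the X-linked Pgk1, which is silenced during meiosis.

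The 250 bases before the gene's start are shown for both genes that fell at 4 d, Gapdhs and Hk1, and for the neighbours Ldhc and Ldha, which did not pass the test (RefSeq, GRCr8). Capitals mark, on either strand, the cyclic AMP response element TGACGTCA, which factors of the CREB and CREM family bind, the related TGACATCA (TGATGTCA on the other strand), and the half-site TGACG, whose matches inside the palindrome are counted too. A match is a description of the letters only, and the motifs were chosen after the sequences were seen. The table holds 2 starts for Hk1, and the upstream one is shown. Which Hk1 start the probe sets report was not tested.
Gapdhs, chr1:95121056-95121305, minus strand: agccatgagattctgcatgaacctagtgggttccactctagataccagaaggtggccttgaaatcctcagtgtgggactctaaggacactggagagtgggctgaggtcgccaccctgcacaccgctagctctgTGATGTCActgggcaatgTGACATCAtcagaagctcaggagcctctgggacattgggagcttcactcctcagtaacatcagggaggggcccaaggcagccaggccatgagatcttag
Hk1, chr20:30874815-30875064, minus strand: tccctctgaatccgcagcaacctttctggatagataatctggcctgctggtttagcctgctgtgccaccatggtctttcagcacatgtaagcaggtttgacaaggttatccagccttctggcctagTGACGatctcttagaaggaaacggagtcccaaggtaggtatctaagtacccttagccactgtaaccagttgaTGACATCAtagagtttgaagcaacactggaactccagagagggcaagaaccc
Ldhc, chr1:106522745-106522994, plus strand: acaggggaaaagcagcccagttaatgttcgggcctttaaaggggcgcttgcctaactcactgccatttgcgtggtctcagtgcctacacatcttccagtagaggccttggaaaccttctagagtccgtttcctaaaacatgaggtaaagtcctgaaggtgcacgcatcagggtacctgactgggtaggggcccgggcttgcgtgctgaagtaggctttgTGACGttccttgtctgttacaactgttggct
Ldha, chr1:106507842-106508091, plus strand: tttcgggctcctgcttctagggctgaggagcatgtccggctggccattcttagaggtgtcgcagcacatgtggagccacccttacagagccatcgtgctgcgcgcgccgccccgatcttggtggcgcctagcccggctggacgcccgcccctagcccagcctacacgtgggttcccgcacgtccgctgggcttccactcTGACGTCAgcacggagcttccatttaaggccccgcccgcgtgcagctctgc
The Gapdhs window held TGACATCA or its reverse complement at 2 places, 117 to 110 and 99 to 92 bases before the start. The upstream Hk1 window held it once, at 52 to 45 bases before the start, and a half-site at 124 to 120. The Ldhc window held 1 half-site, at 31 to 27 bases, and the Ldha window held the full palindrome TGACGTCA at 51 to 44 bases, which contains a half-site on each strand. Of 33469 rat promoter windows of this length, 1.59% held TGACGTCA, 3.8% held TGACATCA and 18.2% held TGACG on either strand. Ldha also had 3 matches to GGGCGG, which 30.5% of windows held, and 22 CpG dinucleotides, against 2 in Gapdhs, 3 in Hk1 and 8 in Ldhc. The second Hk1 window, at the downstream start, held 0 matches to the 3 motifs in capitals. It had 2 overlapping GGGCGG matches and 17 CpG dinucleotides. The windows of Hk2, Gapdh, Pgk2 and Ldhb are not printed. That of Gapdh held 1 half-site TGACG, 56 to 52 bases before the start, and those of Hk2, Pgk2 and Ldhb held 0 matches to the 3 motifs in capitals. For Pgk1, which rose at 4 d, no window was available, so its promoter was not searched. Ldha and Ldhc lie on the same strand of chromosome 1 with 0 protein-coding genes starting between them.

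At 4 d after Adjudin, the germ cell form Gapdhs and the bright Hk1 probe set fell. Of 2 tested Pgk1 probe sets 1 rose, and Ldha and Ldhc did not pass the test. The Pgk1 call lay at the threshold and was lost in 10 of 16 alternatives, against 2 of 16 for Gapdhs and 2 of 16 for Hk1. Of the 10 ordinary probe sets, 9 reached a signal of 100 on 2 or more arrays and were tested, and of these 1 rose, 2 fell and 6 did not pass limma's test (adjusted p under 0.05). Over all 19785 probe sets tested, 9.89% were called, 6.16% higher and 3.73% lower. The groups did not overlap for 3 of the 9 on the higher side and 2 on the lower side, against 17.5% and 11.8% of all probe sets. The median log2 change of the 9 was -0.12, and that of all probe sets was 0.04. In limma blocked by hybridisation run, 3 of the 9 rose and 4 fell, where 13.3% of all probe sets rose and 9.19% fell.

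**Figure D1:**
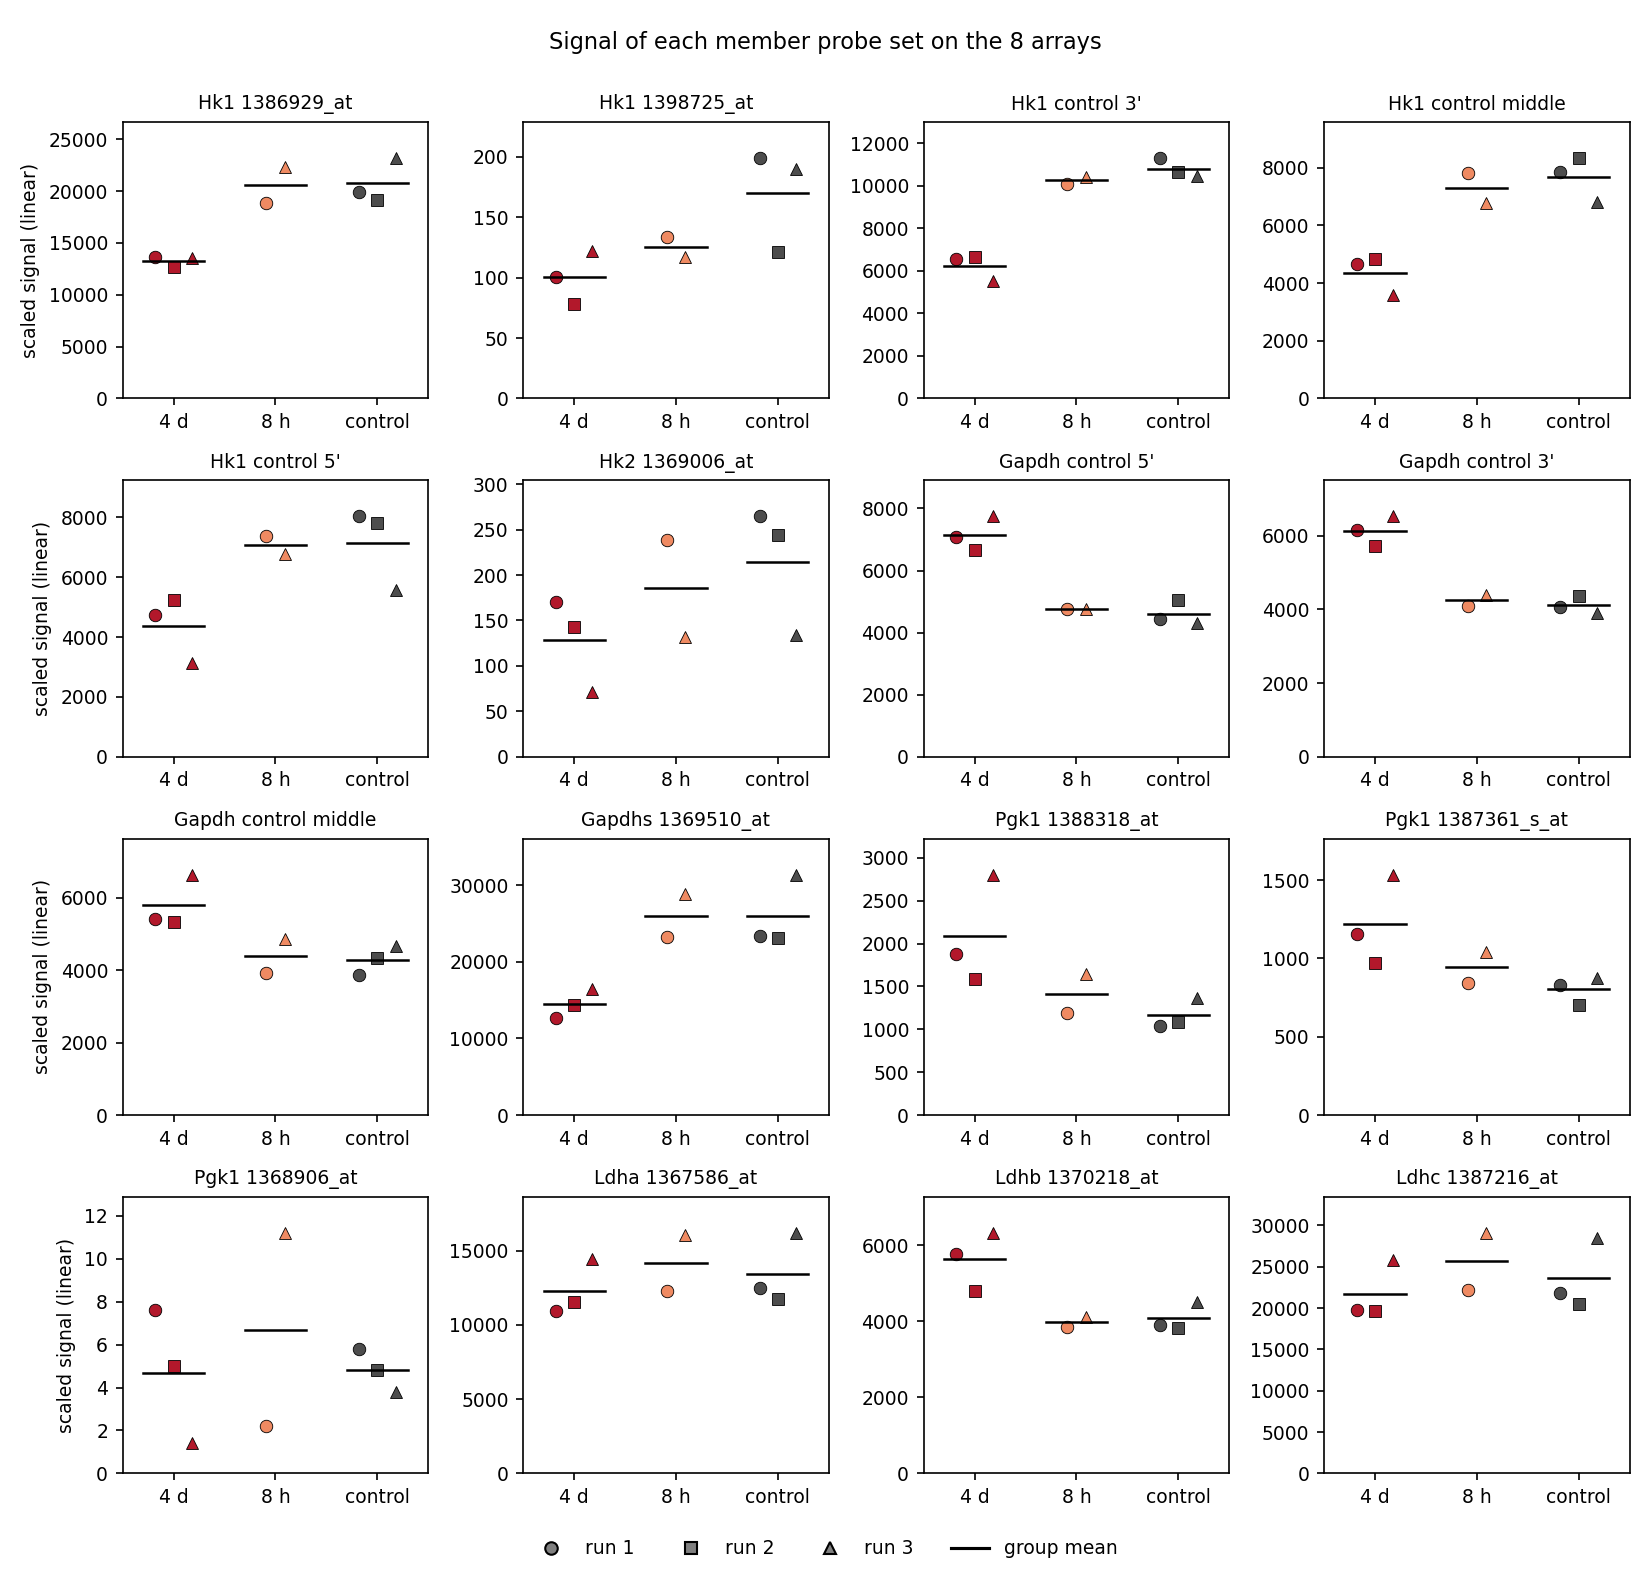
Scaled signal (linear axis starting at 0) of the 16 probe sets on each array, with 4 d left, 8 h in the middle and control right; points are arrays, shapes are hybridisation runs and lines are group means. The 4 d arrays of Gapdhs, the bright Hk1 probe set and the 3 Hk1 control probe sets all sit under the other groups, and those of the 3 Gapdh control probe sets sit above them.

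Hk1, the hexokinase that phosphorylates glucose in most tissues and is bound to mitochondria, was read by 5 probe sets. The bright one had signals of 13617, 12718 and 13558 at 4 d, 18847 and 22317 at 8 h, and 19927, 19108 and 23189 in controls. All 3 arrays at 4 d lay below every array of the other groups, and of the 8 h arrays the second lay among the controls and the first just below the lowest of them. The mean was 13297 ± 503 at 4 d and 20741 ± 2159 in controls (SD, n = 3 each), a 1.55-fold lower signal (log2 change -0.64, SE 0.12, limma adjusted p = 0.0114). Within the 3 runs the log2 difference between the 4 d and control array was -0.55, -0.59 and -0.77. The call was lost without the second 4 d array (log2 change -0.60, limma adjusted p = 0.0532) and when array medians were equalised instead (adjusted p = 0.212).

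The 3 control probe sets of Hk1 read the 5' end, the middle and the 3' end of the transcript and stayed out of the main fit. The 3' probe set had signals of 6565, 6655 and 5496 at 4 d, 10066 and 10414 at 8 h, and 11294, 10635 and 10447 in controls. The middle probe set had 4643, 4843 and 3599 at 4 d, 7810.03 and 6782 at 8 h, and 7856, 8332 and 6814 in controls. For both, every 4 d array was below every other array. When control probe sets were added to the fit (19832 tested), a choice made after seeing the data, the 3' probe set fell by 0.79 (SE 0.12, limma adjusted p = 0.00303) and the middle one by 0.82 (SE 0.15, limma adjusted p = 0.00766). The 5' probe set had 4742, 5242 and 3131 at 4 d, 7369 and 6770.2 at 8 h, and 8028, 7819.99 and 5573 in controls. Its groups did not overlap either, but the third 4 d and the third control array, both of run 3, were low within their groups, and it did not pass (log2 change -0.72, SE 0.21, limma adjusted p = 0.0578; blocked by run 0.000545). By the exact permutation test over arrays, two-sided, each of the 3 gave p = 0.1, the smallest that 3 arrays against 3 allow. The ratio of 3' to 5' signal of Hk1 was 1.27 to 1.76 at 4 d, 1.37 to 1.54 at 8 h and 1.36 to 1.87 in controls. The ranges overlapped, but within each run the 4 d array had the lower ratio (1.38 against 1.41, 1.27 against 1.36 and 1.76 against 1.87). The part of this difference in the change of Hk1 was not tested.

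The remaining hexokinase probe sets were dim. The second Hk1 probe set had 100.4, 78.4 and 121.8 at 4 d, 133.7 and 116.9 at 8 h, and 198.9, 121.6 and 189.7 in controls. The groups overlapped at the third 4 d and second control arrays, and it did not pass (log2 change -0.60, SE 0.25, limma adjusted p = 0.175; blocked by run 0.0474). Hk2, the insulin-regulated hexokinase of muscle, had 170.1, 143.0 and 71.2 at 4 d, 238.9 and 131.7 at 8 h, and 264.5, 243.9 and 133.9 in controls. In every group the run 3 array was the lowest, so the groups overlapped although each 4 d array was below the control of its own run. The log2 change of Hk2 was -0.63 (SE 0.34), with a limma adjusted p of 0.309 and 0.0210 in the blocked fit.

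Glyceraldehyde-3-phosphate dehydrogenase, which makes the first NADH of the pathway, went opposite ways in its 2 forms at 4 d. Gapdhs, the form anchored in the sperm tail, had signals of 12618, 14389 and 16475 at 4 d, 23195 and 28841 at 8 h, and 23422, 23154 and 31374 in controls. The 4 d arrays were all lower than the others, and the run 3 array was the highest of each group. Its mean was 14494 ± 1930 at 4 d and 25983 ± 4670 in controls (SD, n = 3 each), 1.78-fold lower (log2 change -0.83, SE 0.16, limma adjusted p = 0.0116), and the within-run differences were -0.89, -0.69 and -0.93. The call was lost without the first 4 d array (log2 change -0.74, limma adjusted p = 0.0605) and with equalised medians (adjusted p = 0.152).

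Gapdh, the form of somatic cells, had 7069, 6649.8 and 7744 at 4 d, 4754 and 4764 at 8 h, and 4429, 5042 and 4315 in controls with its 5' control probe set. All 4 d arrays lay above all others. It rose 1.55-fold (log2 change 0.64, SE 0.12, limma adjusted p = 0.00841 with control probe sets in the fit), with within-run differences of 0.67, 0.40 and 0.84. The 3' probe set had 6167, 5719 and 6528 at 4 d, 4108 and 4384 at 8 h, and 4075, 4371 and 3912 in controls, and rose by 0.57 (limma adjusted p = 0.0112). The middle probe set had 5413, 5319.6 and 6630.4 at 4 d, 3917 and 4864 at 8 h, and 3877, 4321 and 4670.4 in controls. Again the 4 d arrays were the highest, but the middle probe set did not pass (log2 change 0.43, SE 0.14, limma adjusted p = 0.0948; blocked by run 0.00234). The exact permutation test gave p = 0.1 for each of the 3, the smallest possible. Its 3' to 5' ratio was 0.843 to 0.872 at 4 d, 0.864 to 0.920 at 8 h and 0.867 to 0.920 in controls, and within each run it was lower on the 4 d array (0.872 against 0.920, 0.860 against 0.867 and 0.843 against 0.907). Its part in the change of Gapdh was not tested either. Gapdh has many processed pseudogenes in rodents, and signal from near-identical copies cannot be told apart here.

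Phosphoglycerate kinase, which makes the first ATP of the pathway, was read only through Pgk1. The brighter probe set had 1878, 1587 and 2803 at 4 d, 1186 and 1641 at 8 h, and 1034, 1085 and 1365 in controls. All 4 d arrays were above all controls, but the second 4 d array was below the second 8 h array, and run 3 arrays were the highest of each group. Its mean was 2089 ± 635 at 4 d and 1162 ± 178 in controls (SD, n = 3 each), 1.74-fold higher (log2 change 0.80, SE 0.22, limma adjusted p = 0.0477; blocked by run 0.000568), with within-run differences of 0.84, 0.54 and 1.02. This call lay at the threshold: adjusted p was 0.0506 and 0.0528 without the first and the second 8 h array, 0.107 and 0.131 without the first and the third 4 d array, and 0.136 and 0.137 without the first and the second control. It was also lost with a pseudocount of 4 (limma adjusted p = 0.0505), with no signal minimum (0.0653), with no variance trend (0.0867) and with equalised medians (0.204).

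The second Pgk1 probe set, whose suffix marks probes that match more than 1 transcript, had 1156, 972 and 1534 at 4 d, 845 and 1042 at 8 h, and 833, 703 and 874 in controls. The 4 d and control arrays did not overlap, and it did not pass (log2 change 0.57, SE 0.18, limma adjusted p = 0.0864; blocked by run 0.00467). The third had signals of 1.40 to 11.2 over the 8 arrays, reached the minimum on 0 of them and was not tested.

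**Figure D2:**
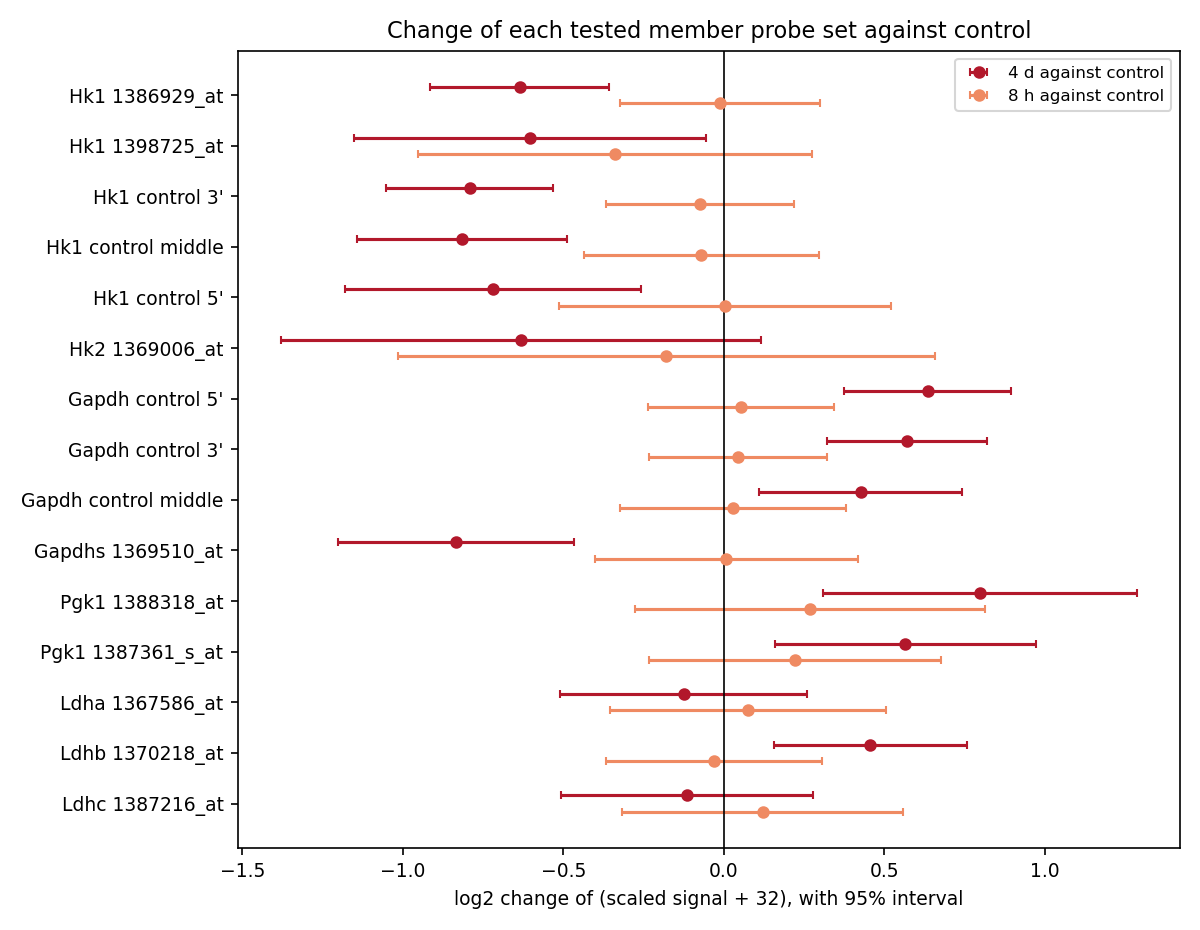
Log2 change of (scaled signal + 32) with its 95% interval for the 15 tested probe sets of the 16, at 4 d and at 8 h against control. At 4 d the intervals of Gapdhs, both ordinary Hk1 probe sets and the 3 Hk1 control probe sets lie below 0. Those of the 3 Gapdh control probe sets, both tested Pgk1 probe sets and Ldhb lie above it. The intervals of Hk2, Ldha and Ldhc, and all 8 h intervals, include 0. The intervals are not adjusted for the number of probe sets tested.

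Lactate dehydrogenase comes as a muscle-type subunit, Ldha, a heart-type subunit, Ldhb, and the germ cell subunit, Ldhc. Ldhc had 19756, 19656 and 25841 at 4 d, 22187 and 29070.3 at 8 h, and 21821, 20528 and 28414 in controls. The groups overlapped, with the run 3 array highest in each. Its log2 change at 4 d was -0.11 (95% interval -0.51 to 0.28, limma adjusted p = 0.776), and the interval excludes the -0.83 fitted for Gapdhs. The 95% interval of Gapdhs itself, -1.20 to -0.47, overlaps that of Ldhc, and the 2 changes were not tested against each other. Ldha had 10934, 11544 and 14428 at 4 d, 12258 and 16082 at 8 h, and 12462, 11715 and 16187 in controls. Its log2 change was -0.12 (95% interval -0.51 to 0.26, limma adjusted p = 0.746), and both genes changed sign under quantile normalisation (0.11 for Ldhc and 0.09 for Ldha). Ldhb had 5758, 4802 and 6323 at 4 d, 3863 and 4103 at 8 h, and 3893, 3826 and 4516 in controls. All its 4 d arrays were above all others, with within-run differences of 0.56, 0.33 and 0.48. It did not pass (log2 change 0.46, SE 0.13, limma adjusted p = 0.0630), but did with the run as a block (0.00189) and under quantile normalisation (log2 change 0.60, limma adjusted p = 0.00495).

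**Figure D3:**
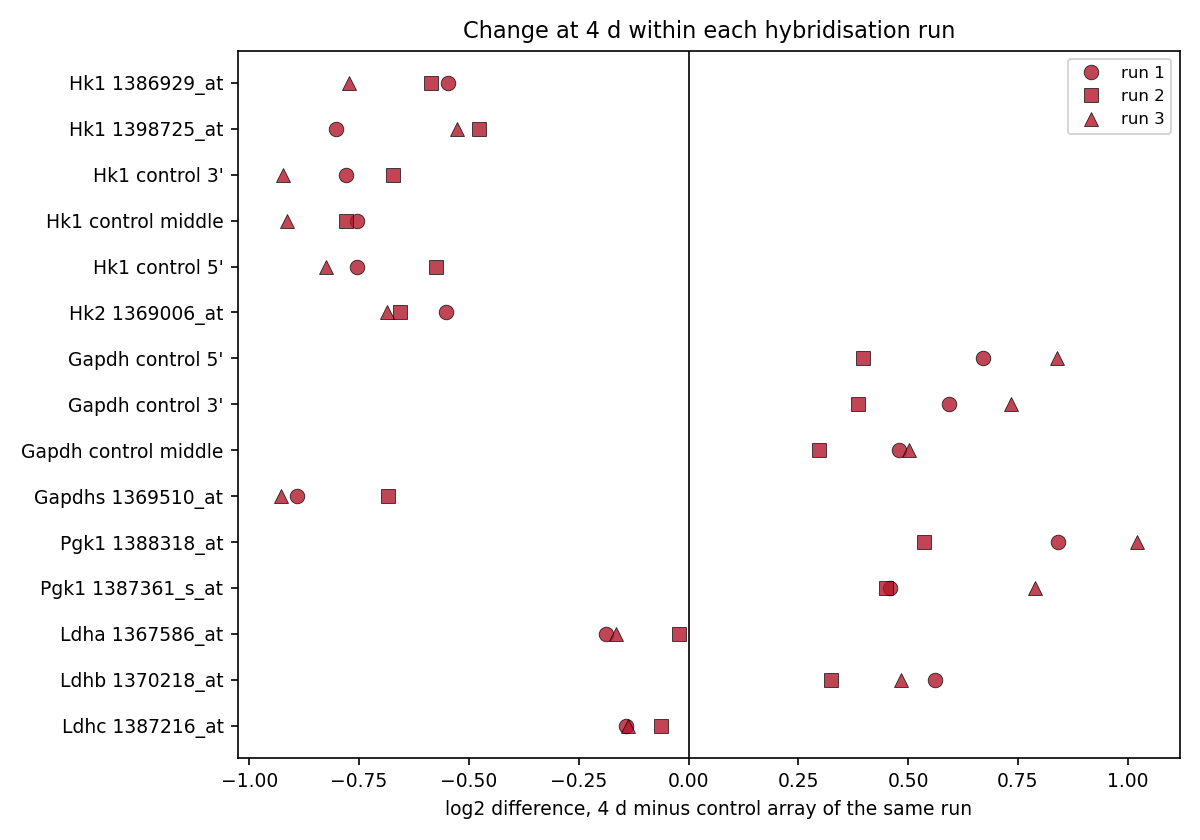
Log2 difference between the 4 d and the control array of the same hybridisation run, for the 15 probe sets, with 1 point per run. The 3 runs gave the same sign for every probe set, and the points of Ldha and Ldhc lie closest to 0.

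The difference between the changes of a germ cell form and its somatic counterpart was tested within arrays, over 3 pairs, with the exact permutation test, two-sided, whose smallest possible p was 0.1. Gapdhs minus Gapdh, with Gapdh read by its 5' control probe set because that was the brightest, was 0.83, 1.11 and 1.09 at 4 d, 2.28 and 2.59 at 8 h, and 2.39, 2.19 and 2.85 in controls on the log2 scale. The levels of different probe sets cannot be compared, so only the shift between groups is read. It was -1.47, with within-run values of -1.56, -1.08 and -1.77 and no overlap (exact p = 0.1, 0.15 after Benjamini-Hochberg adjustment over the 3 pairs). With the 3' and the middle Gapdh probe set, tried after seeing the data, the shift was smaller, -1.41 and -1.26, also without overlap (exact p = 0.1 each). Ldhc minus Ldhb shifted by -0.57, again without overlap (exact p = 0.1, adjusted 0.15). Ldhc minus Ldha was 0.85, 0.77 and 0.84 at 4 d, 0.85 and 0.85 at 8 h, and 0.81, 0.81 and 0.81 in controls. This shift was 0.01 (exact p = 0.8), with an SD of 0.046 among the 4 d arrays and 0.0020 among the controls (n = 3 each) and within-run values of 0.04, -0.04 and 0.03. The pair of Pgk2 and Pgk1 could not be computed.

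**Figure D4:**
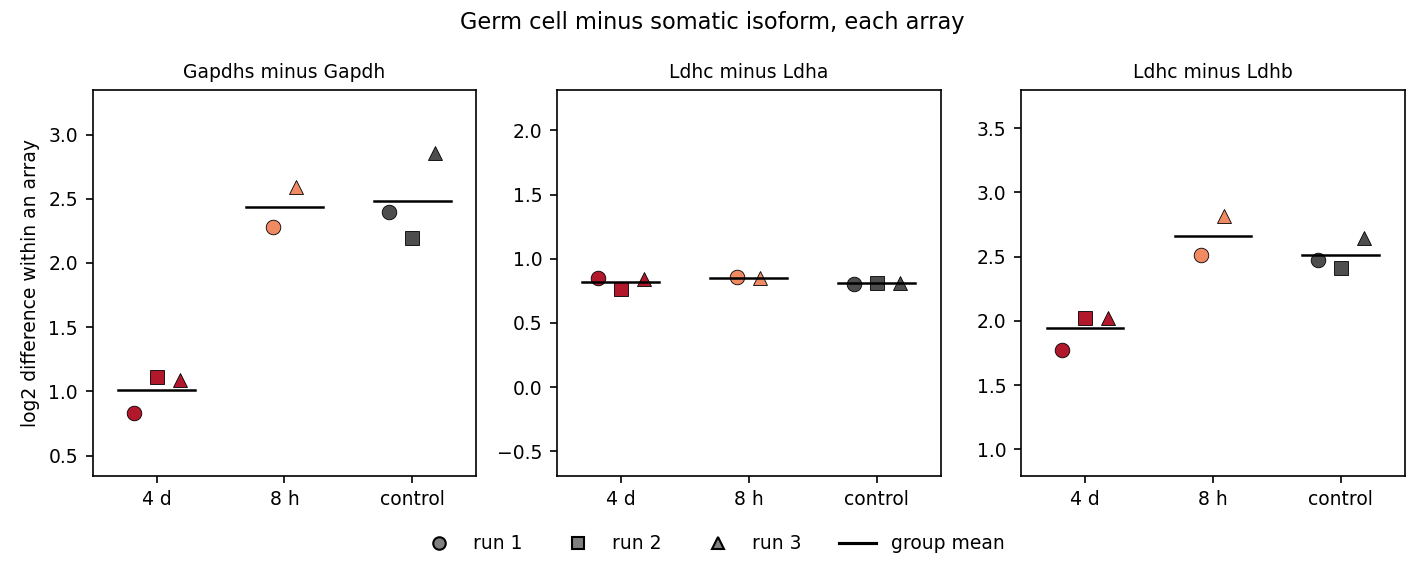
Log2 difference between the germ cell and the somatic probe set within each array for 3 pairs, on axes of equal span, with 4 d left, 8 h in the middle and control right; shapes are runs and lines are group means. Gapdhs minus Gapdh is lower on the 3 arrays at 4 d (0.83 to 1.11) than on any other array, and Ldhc minus Ldha stays between 0.77 and 0.85.

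At 8 h none of the members passed. Of the 9 ordinary probe sets, 0 rose and 0 fell in limma (0 also with the run as a block and 0 at an unadjusted p under 0.05), where 0.0657% of all probe sets were called, and 0.278% with the block. The log2 changes lay between -0.34 and 0.27 with a median of 0.01, and that of all probe sets was -0.01. For Gapdhs the change was 0.01 (95% interval -0.40 to 0.42) and for the bright Hk1 probe set -0.01 (-0.32 to 0.30). None of the 6 control probe sets passed, although the 3' Hk1 probe set did not overlap with controls (log2 change -0.07), as did 7.62% of all probe sets on the lower side. Ldhc minus Ldha shifted by 0.05 without overlap (exact p = 0.1, 0.3 after adjustment over the 3 pairs). This group has only 2 arrays.

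Between 4 d and 8 h, Gapdhs fell by 0.84 (SE 0.18, limma adjusted p = 0.0276) and the bright Hk1 probe set by 0.62 (SE 0.14, limma adjusted p = 0.0307). Over 16 alternatives the call was lost in 7 for Gapdhs and in 11 for Hk1. Of the 9 ordinary probe sets these 2 fell and 0 rose, where 6.06% of all probe sets were called, 3.58% higher and 2.47% lower. In the fit blocked by run, 3 rose and 2 fell, while 8.57% and 7.09% of all probe sets did. Those that rose were the brighter Pgk1 probe set (0.64, limma adjusted p = 0.00766), the second (0.46, 0.0364) and Ldhb (0.56, 0.00214). With control probe sets in the fit, the 5' and 3' Gapdh probe sets rose by 0.58 (limma adjusted p = 0.0309) and 0.53 (0.0373), and the 3' and middle Hk1 probe sets fell by 0.72 (0.0133) and 0.75 (0.0284).

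Of 20 other glycolytic enzymes listed, 15 had a probe set and 13 were tested, and at 4 d 0 rose and 5 fell. The median change of the 13 was -0.11. Over all probe sets tested, 6.16% rose and 3.73% fell. Tpi1, the triosephosphate isomerase, averaged 8003 ± 1049 at 4 d and 13601 ± 1721 in controls (SD, n = 3 each; log2 change -0.76, limma adjusted p = 0.0108). Gpi, the isomerase that follows hexokinase, averaged 2281 ± 343 at 4 d and 3930.2 ± 573 in controls (log2 change -0.78, limma adjusted p = 0.0113). Pgam2, the muscle-type phosphoglycerate mutase, fell by 0.61 (limma adjusted p = 0.0192), and the aldolases Aldoc and Aldoa by 0.60 (0.0329) and 0.43 (0.0387). Aldoa and the next gene were named after their values were seen. Pgam1, the mutase of most other tissues, averaged 6389 ± 1299 at 4 d and 4028 ± 948 in controls (log2 change 0.67, limma adjusted p = 0.0610; blocked by run 0.000346). With the block, 2 of the 13 rose and 6 fell, where 13.3% and 9.19% of all probe sets did.

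**Figure D5:**
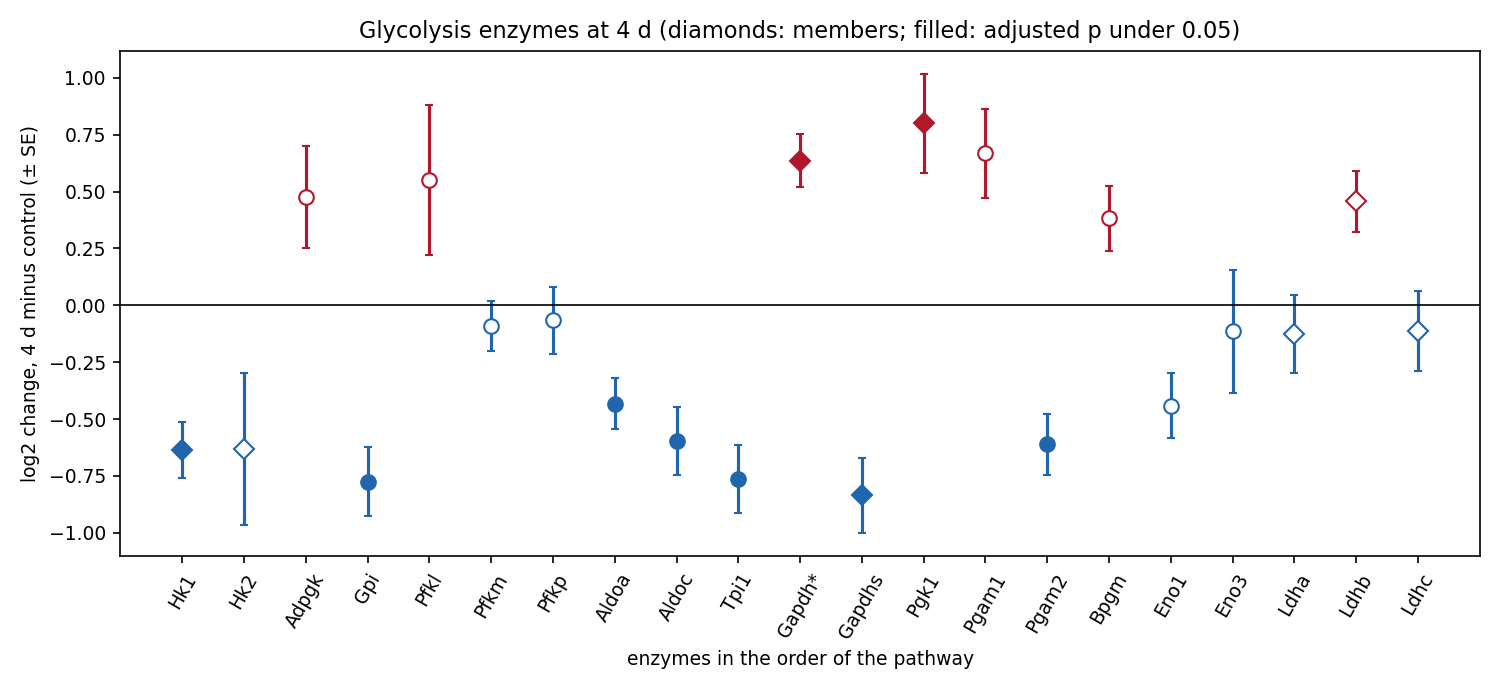
Log2 change at 4 d against control (± SE) of 8 of the genes above (diamonds, Gapdh marked with an asterisk because it is read by its 5' control probe set) and 13 other glycolytic enzymes (circles), in the order of the pathway; filled symbols passed limma's test at an adjusted p under 0.05. Filled symbols below 0 are Hk1, Gpi, Aldoa, Aldoc, Tpi1, Gapdhs and Pgam2, and those above 0 are Gapdh and Pgk1.

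Of 18 regulators of glycolysis and genes of pyruvate entry into mitochondria, 16 had a probe set and 13 were tested. At 4 d 2 rose and 2 fell, where 6.16% and 3.73% of all probe sets did, and the median change of the 13 was -0.07. Pdha1, the X-linked subunit of pyruvate dehydrogenase, had 506.8, 374.1 and 534.0 at 4 d, 255.7 and 272.3 at 8 h, and 259.1, 257.7 and 248.1 in controls. It was higher on all 4 d arrays (log2 change 0.80, SE 0.17, limma adjusted p = 0.0171). Its germ cell retrogene Pdha2, named after its values were seen, averaged 2760 ± 117 at 4 d and 2896 ± 93 in controls (log2 change -0.07, limma adjusted p = 0.776). Mpc1, a subunit of the mitochondrial pyruvate carrier, rose by 0.55 (limma adjusted p = 0.0187). Pfkfb4, a form of the enzyme that sets fructose-2,6-bisphosphate, fell by 0.78 (0.0211) and Pdk3, a kinase that inhibits pyruvate dehydrogenase, fell by 0.46 (0.0388). With the block, 2 rose and 5 fell, where 13.3% and 9.19% of all probe sets did.

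All 12 genes of glucose and lactate transport had a probe set, and 8 were tested. At 4 d 1 rose and 1 fell, where 6.16% and 3.73% of all probe sets did, and the median change of the 8 was 0.11. Slc2a1, the glucose transporter GLUT1, had 423.7, 489.2 and 489.0 at 4 d, 278.1 and 343.2 at 8 h, and 260.5, 296.5 and 208.1 in controls. All 4 d arrays were above the others (log2 change 0.81, SE 0.18, limma adjusted p = 0.0180). Emb, embigin, a partner protein of lactate transporters, had 596, 623 and 706 at 4 d, 1068 and 1045 at 8 h, and 923, 1038 and 1048 in controls, and fell by 0.62 (limma adjusted p = 0.0149). At 8 h, 0 genes of these 3 lists passed.

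Markers of testis cell types moved at the same time. Over all probe sets tested, 6.16% rose and 3.73% fell at 4 d, and 13.3% and 9.19% did with the run as a block. Of 9 elongating spermatid markers, 4 fell at 4 d, Prm2, Akap4, Fscn3 and Cabs1 (9 with the run as a block), and their summed signal was 130919 to 191530 at 4 d, 199251 to 262877 at 8 h and 190463 to 291108 in controls. Of 6 round spermatid markers, 3 fell (5 with the block), and the sum was 25179 to 27983 at 4 d, 38778 to 44274 at 8 h and 38284 to 42524 in controls. None of 7 spermatocyte markers passed with or without the block, and the sum was 31149 to 33665 at 4 d, 35094 to 36015 at 8 h and 31479 to 38077 in controls. Of 9 Sertoli cell markers 3 rose, Cldn11, Kitlg and Testin, and 1, Rhox5, fell (4 and 1 with the block). Their sum was 36579 to 48157 at 4 d, 26111 to 29087 at 8 h and 22906 to 26961 in controls. Clu was the brightest of them, with means of 22861 at 4 d and 15970 in controls. It did not pass (limma adjusted p = 0.0541, and 0.000516 blocked by run). Of 7 leukocyte markers 5 rose and 1, Aif1, fell (6 and 1 with the block). The sum over all 8 with a probe set was 10620 to 13386 at 4 d, 8039 to 9183 at 8 h and 8554 to 9438 in controls. Aif1 was the brightest of them, averaging 4918 at 4 d and 6836 in controls, so this sum also follows a gene that fell. Of 3 red cell genes 2 rose, with a sum of 6530 to 11394 at 4 d, 4232 to 4733 at 8 h and 3166 to 5107 in controls. None of the tested markers of spermatogonia (4), Leydig cells (6), peritubular cells (5) and endothelium (4) passed without the block. With it, 3 Leydig cell markers rose (Star, Hsd3b1 and Insl3), as did Uchl1 of the spermatogonial, Esam of the endothelial and Des of the peritubular markers, while Myh11, also peritubular, fell. No list had a gene at a signal of 0. The part of these cell types in the changes of the glycolytic genes was not tested.

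The genes whose log2 signals followed a member most closely over the 8 arrays were sought among 8910 genes with a signal of 100 or more on every array. These correlations describe 8 arrays that share runs and scaling, and no test was made. For Gapdhs they were Lpp, Tmod1 and Mroh7 (Pearson's r of 0.998, 0.997 and 0.997), whose own changes at 4 d were -0.87, -0.92 and -1.15. For Pgk1 they were Rfc3, Ap2m1 and Rpl35 (r of 0.983, 0.981 and 0.980), whose own changes at 4 d were 0.25, 0.47 and 0.63, against 0.80 for Pgk1. With group means taken out, r was still 0.986 to 0.998 for the 3 genes of Gapdhs and 0.941 to 0.965 for the 3 of Pgk1. For Ldha they were Actr10, Ran and Trim37 (r of 0.994, 0.993 and 0.992), and for Ldhc Ppp1cc, Trim37 and Actr10 (r of 0.993, 0.993 and 0.992). Actr10 and Trim37 stood on both lists.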

How the data were processed

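Per the labels' protocols, RNA from 0.1 g of frozen testis was extracted, and 5 µg of total RNA gave biotin-labelled cRNA for 1 array per sample. Groups came from the sample titles, because every description field reads as untreated testis. The authors deposited linear MAS 5.0 signal intensity for every probe set (per the submitters' processing notes), and the design text also names GeneSpring 7.2. The 2% trimmed mean of each deposited array was 250. Detection calls were not used here, and the array settings served to find the runs.

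Each array was scaled to a 2% trimmed mean of 500 and log2(signal + 32) was taken, which understates fold changes of dim genes. The 57 control probe sets were left out, and a signal of 100 on at least 2 arrays was required, which left 19785 of 31042 probe sets. All 8 arrays of 3 groups were fitted with limma 3.58.1 in R 4.3.3 (lmFit, eBayes with a trend, no block), with Benjamini-Hochberg adjustment over all tested probe sets at 0.05. The fit was tested on simulated data with independent noise on each array, so variation shared within a run was not part of that test. Control probe sets and pairs had exact permutation tests over arrays, and the number of arrays limits the precision.

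Runs came from the hybridisation day: run 1 held the arrays numbered 1, run 2 the 4 d and control arrays numbered 2 (with fluidics version 4, against 5 on the others), and run 3 the 4 d and control arrays numbered 3 and the second 8 h array. Deviations from the group means correlated at 0.353 to 0.507 between arrays of the same run and other groups. Between other runs they correlated at -0.48 to 0.25. Arrays of the same run thus shared variation, but neither the main fit nor the exact tests paired them by run. The fit with the run as a block does so, and is given as an alternative.

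Of the non-control probe sets, 20826 had 1 symbol, 436 several and 9780 none. The 8 member genes with a probe set matched the RefSeq gene table, with 0 symbols updated. The members, the gene lists and the tests were chosen with earlier results of these data known. Every member probe set was named. A listed gene was read by its brightest probe set. Of the lists of other glycolytic enzymes, regulators and transport, up to 4 genes past the threshold were named, by size of change. The 3 genes most similar in pattern to a member were named too. For the cell type markers counts and sums were given, and not every marker that passed was named. Alternatives covered the pseudocount, the signal minimum, the scaling, the variance trend, the run as a block and leaving out each array.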

Additional observations from a re-analysis of the deposited data

Results flagged for a closer look

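The effect of Adjudin differed between the 2 time points for 2 of the ordinary probe sets, by limma's test of 4 d against 8 h without the block. Control probe sets and the blocked fit, given above, are not counted here. The bright Hk1 probe set differed by -0.62 on the log2 scale (adjusted p = 0.0307) and was lower on 3 of 3 arrays at 4 d than on both arrays at 8 h. Gapdhs differed by -0.84 (limma adjusted p = 0.0276), also on 3 of 3 arrays. Of 16 alternatives, 11 ended the Hk1 call and 7 the Gapdhs call, among them no signal minimum (limma adjusted p = 0.0716 and 0.0566), no variance trend (0.0778 and 0.0646) and equalised medians (0.281 and 0.207). Quantile normalisation ended the Hk1 call (0.0754). Without 4 d arrays 1, 2 and 3 in turn, adjusted p was 0.0979, 0.104 and 0.0652 for Hk1, and 0.109, 0.0812 and 0.0343 for Gapdhs. Without the first and the second control it was 0.0546 and 0.0503 for Hk1, while the Gapdhs call held. Without the first 8 h array adjusted p was 0.0645 for Hk1 and 0.0626 for Gapdhs, and without the second it was 0.231 and 0.218.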

How the results depend on the processing

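Of the alternatives for single probe sets at 4 d against control, 116 kept direction and side of the threshold, 14 lost a call, 8 gained one and 4 changed sign. For 4 d against 8 h these were 118, 18, 4 and 2, and for 8 h against control 127 kept both and 15 changed sign. At 4 d against control, the number of probe sets called higher (1218) was 739 with equalised medians, 2632 with the run as a replicate block and 580 to 1136 when 1 array was left out. Lower calls (738) were 413, 1819 and 315 to 667. Among the 9 members, the 1 higher call became 0 with a pseudocount of 4, with no signal minimum, with equalised medians or with no variance trend, 2 with the minimum on all 8 arrays or quantile normalisation, 3 with the block, and 0 to 2 without 1 array. The 2 lower calls became 0 with equalised medians, 4 with the block, and 1 to 2 without 1 array. At 8 h, the 13 higher calls over all probe sets became 20 with equalised medians, 53 with the block and 0 to 14 without 1 array, and the 0 lower calls became 2 with the block and 0 to 1. Between 4 d and 8 h, 709 higher calls became 281 with equalised medians, 1695 with the block and 174 to 875 without 1 array. The 489 lower calls became 238, 1403 and 90 to 626, and 289 with no variance trend. Among the members there, the 0 higher calls became 1 with quantile normalisation and 3 with the block, and the 2 lower calls became 0 with no signal minimum, equalised medians or no variance trend, 1 with quantile normalisation, and 0 to 2 without 1 array. Equalised medians moved the median change of all probe sets between 4 d and 8 h to -0.05, from 0.06. The cause of these shifts was not tested.

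Signs changed as follows, none of them for a called change. At 4 d against control Ldha was 0.095 and Ldhc 0.11 under quantile normalisation, and 0.015 and 0.027 without the third control array (over all arrays left out, -0.24 to 0.015 and -0.24 to 0.027). Between 4 d and 8 h they were 0.053 and 0.034 under quantile normalisation. At 8 h, with equalised medians Hk1 was 0.065 and Ldhb 0.045, and Gapdhs was -0.024 under quantile normalisation and -0.030 with the block. Leaving out 1 array gave ranges of -0.13 to 0.11 for the bright Hk1 probe set, -0.54 to 0.18 for Hk2, -0.15 to 0.17 for Gapdhs, -0.12 to 0.27 for Ldha, -0.074 to 0.044 for Ldhb and -0.074 to 0.32 for Ldhc. Leaving out 1 array moved the shift of Ldhc minus Ldha at 4 d over -0.0055 to 0.037. With 1 array at 8 h left, its spread was assumed to be that of the other groups. Precision is limited by 2 and 3 arrays a group, and dim probe sets (Hk2 and the second Hk1 probe set) lie near the signal minimum.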
